A study of Mus musculus with 12 samples.

Results

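The genes described here are 9 transcription factors that set up enterocytes, the absorptive cells of the small intestine, or mark out its regions: Hnf4a, Hnf4g, Cdx1, Cdx2, Gata4, Gata6, Klf5, Maf and Tbx3. They were picked by symbol from a count table of 55414 genes, each symbol matched 1 gene identifier, and all 9 were among the 13057 genes that passed the filter on low counts. The table holds bulk RNA-seq of cells sorted from small-intestinal crypts of C57BL/6J mice aged 8 to 12 weeks, in 4 groups of 3 libraries. WT Paneth and WT non-Paneth cells came from wild-type mice, and GRKO Paneth and GRKO non-Paneth cells from mice that had lost Nr3c1, the glucocorticoid receptor gene, in villin-expressing epithelium. Villin is active throughout the intestinal epithelium, so the deletion concerns both sorted fractions. The Paneth gate required CD24, cKIT and a side scatter in the medium or upper range, with CD31-, CD45- and TER119-positive cells left out. No treatment is named for any group. Whether the WT mice carried floxed alleles, how the non-Paneth gate was set, which stretch of the intestine was taken and whether animals were pooled are not given in the sources used here.

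HNF4A and HNF4G are nuclear receptors that share a DNA motif and together keep up the genes of lipid uptake and of the brush border in enterocytes. CDX1 and CDX2 are homeodomain proteins that give the gut epithelium its intestinal identity, and GATA4 and GATA6 are zinc finger proteins, of which GATA4 marks the proximal small intestine. KLF5 is a Krüppel-like factor of dividing crypt cells, MAF is a large basic leucine zipper protein that takes part in the enterocyte programme, and TBX3 is a T-box repressor best known from development. Paneth cells, which secrete defensins and lysozyme at the crypt base, belong to the secretory lineage.

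The libraries held 11126297 to 15910292 counts. Levels are given as scaled CPM, library-size-normalised counts (CPM) after TMM scaling, which corrects for the large share that a few Paneth genes take of a library. In GRKO non-Paneth cells the deleted gene Nr3c1 had 13.1 to 24.5 scaled CPM, against 110 to 131 in the WT libraries. In GRKO Paneth cells it had 5.82 to 15.4, against 40.8 to 54.1. The 6 Paneth markers summed to 418549 scaled CPM or more in every Paneth library and to 1116 or less in every non-Paneth library. Between the WT fractions, 4 of 4 tuft markers and 5 of 5 stem cell markers were also higher in Paneth libraries. Their mean sums were 273 against 5.08 and 8395 against 4292 scaled CPM. All 5 enteroendocrine markers were lower there, and of 6 goblet markers 1 was higher and 3 were lower. Of 5 proliferation markers 2 were higher. Among all genes tested, 50.7% were called between these fractions, 24% higher and 26.7% lower. The part of these differences in the results was not tested. All 8 enterocyte markers were detected in every group. Their sum was 26388 to 26959 scaled CPM for WT non-Paneth, 5013 to 6575 in GRKO non-Paneth and 459 to 763 in GRKO Paneth cells. In WT Paneth cells it was 401, 2113 and 467 scaled CPM, so that the second library carried more enterocyte transcripts than the other two. Xist, the RNA of the inactive X chromosome in females, lay at 193 and 214 scaled CPM in the second WT Paneth and the second WT non-Paneth library and at most at 0.427 in the other 10. The labels give no sex, and its part in the genotype comparisons was not tested beyond leaving out either library, without which 0 factors in Paneth and the same 4 in non-Paneth cells were called. In such bulk samples, fewer cells of a type and less RNA per cell cannot be told apart. The 5 mesenchymal markers summed to at most 0.475 scaled CPM and the 3 endothelial markers to at most 0.445. The 5 macrophage markers summed to at most 4.08 and the 5 T cell markers to at most 28.7, the latter in a GRKO Paneth library. That value is Ptprc, a gene of leukocytes in general, at 28.7. In GRKO Paneth cells Cd3g reached at most 0.242 scaled CPM, and the other 3 T cell markers had no counts.

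Most of the factors, 7 of 9, were lower in WT Paneth than in WT non-Paneth cells, with Maf, Hnf4g and Tbx3 the farthest apart. The same 7 genes were lower in GRKO Paneth than in GRKO non-Paneth cells. In non-Paneth cells, Maf, Tbx3 and Hnf4g were lower and Cdx1 was higher in GRKO than in WT mice, where 37.3% of all genes were called. No factor passed the test in Paneth cells, where 3.22% of all genes were called.

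**Figure D1:**
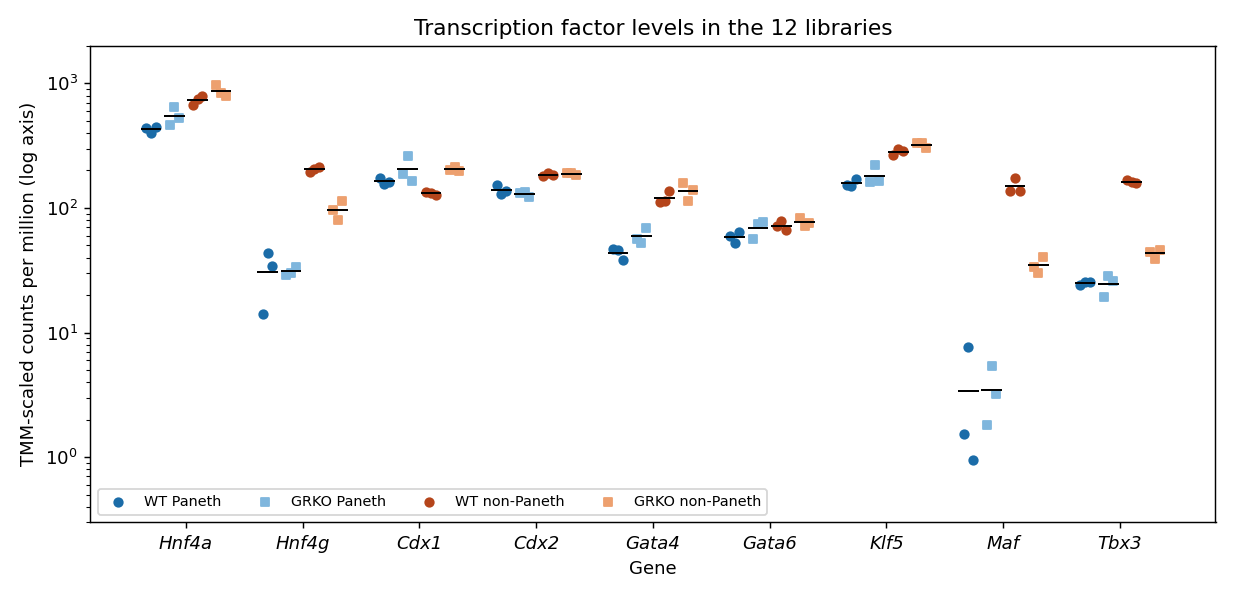
Scaled CPM of the 9 factors in each of the 12 libraries on a log axis, with a point per library and a bar at the mean of the 3 libraries of a group. Maf runs from 0.946 to 175 scaled CPM, while Gata6 stays between 51.9 and 82.5.

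A single edgeR quasi-likelihood fit of the 12 libraries gave every comparison, with Benjamini-Hochberg adjustment over all genes tested and a threshold of 0.05. In WT mice 7 of 9 factors were called between Paneth and non-Paneth cells, all 7 lower, where 50.7% of all genes tested were called. In GRKO mice 7 of 9 were called, all 7 lower, against a background of 39.2%. For GRKO against WT in non-Paneth cells 4 of 9 were called, 1 higher and 3 lower, against 37.3%, which is close to the share among all genes. In Paneth cells 0 of 9 were called by edgeR, against 3.22%, which is again close to the share among all genes. There 3 of 9 had an unadjusted p under 0.05, and DESeq2 called 0 as well. The interaction, which asks whether the effect of genotype differed between the fractions, was called for 1 of 9, Tbx3. Among all genes 18.7% were called, so the count of factors is not above the share. Apart from Tbx3, Maf and Hnf4g, the interactions lay between -0.31 for Cdx1 and 0.25 for Gata4, with adjusted p of 0.299 and 0.432. The median log2 fold change of the 9 factors was -0.85 between the WT fractions and 0.09 for genotype in non-Paneth cells, beside medians of 0.01 and 0.02 over all genes tested.

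**Figure D2:**
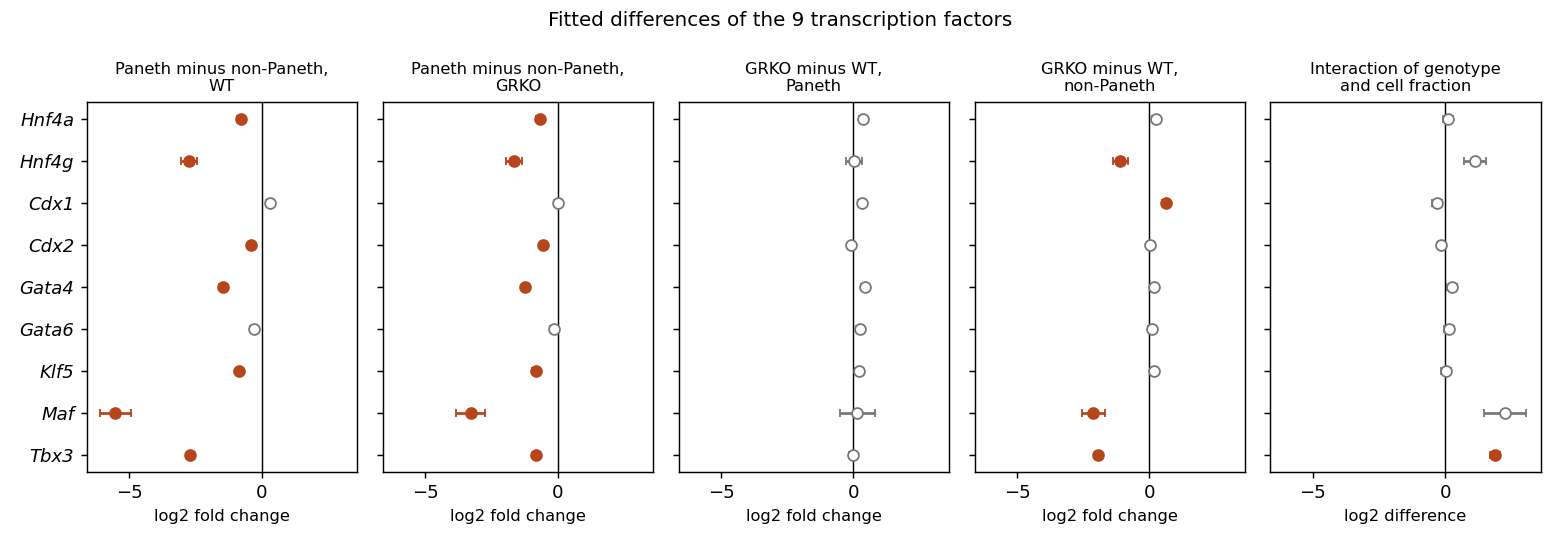
Fitted log2 fold changes of the 9 factors with their standard errors in the 4 comparisons and the interaction. Filled points passed an adjusted p of 0.05, which were 7, 7, 0, 4 and 1 of the 9 factors from left to right.

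Hnf4a (ENSMUSG00000017950) lies on the plus strand of chromosome 2 from base 163348728 to 163414830 in the GRCm39 assembly. It stood at 439, 401 and 444 scaled CPM in WT Paneth cells and at 667, 751 and 786 in WT non-Paneth cells. In GRKO mice it stood at 466, 648 and 529 in Paneth cells and at 977, 839 and 789 in non-Paneth cells. Each Paneth library lay below each non-Paneth library of its genotype. The log2 fold change was -0.78 between the WT fractions (SE 0.142, adjusted p = 0.000294) and -0.66 between the GRKO fractions (SE 0.141, adjusted p = 0.00162). The genotypes differed by 0.35 in Paneth cells (adjusted p = 0.129) and 0.24 in non-Paneth cells (adjusted p = 0.194), neither past the threshold.

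RefSeq gives Hnf4a a pair of transcript starts, and the gene-level counts add up reads from both, so that they cannot be assigned to a start here. The 250 bases before each start, and before the start of Cdx2, are shown because HNF, CDX and GATA proteins are known to act on each other's promoters. The sequences are RefSeq's for GRCm38.p6, a build other than the GRCm39 used for the gene positions. The promoter table used here held 2 of the 9 factors, and Hnf4g, Cdx1, Gata4, Gata6, Klf5, Maf and Tbx3 are named only. Capitals mark matches to the motifs given after them, read 5′ to 3′ on the strand of the gene.
Hnf4a, upstream start, chr2:163506607-163506856, plus strand: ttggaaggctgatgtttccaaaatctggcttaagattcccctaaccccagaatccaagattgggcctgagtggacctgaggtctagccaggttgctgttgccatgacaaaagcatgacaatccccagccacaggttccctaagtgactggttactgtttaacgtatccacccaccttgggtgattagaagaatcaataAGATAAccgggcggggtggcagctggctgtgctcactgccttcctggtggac
Hnf4a, downstream start, chr2:163546905-163547154, plus strand: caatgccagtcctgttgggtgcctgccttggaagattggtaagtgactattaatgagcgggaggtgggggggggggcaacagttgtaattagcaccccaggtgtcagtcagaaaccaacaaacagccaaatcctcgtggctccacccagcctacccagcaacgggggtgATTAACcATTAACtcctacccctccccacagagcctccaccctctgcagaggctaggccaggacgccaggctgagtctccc
Cdx2, chr5:147307250-147307499, minus strand: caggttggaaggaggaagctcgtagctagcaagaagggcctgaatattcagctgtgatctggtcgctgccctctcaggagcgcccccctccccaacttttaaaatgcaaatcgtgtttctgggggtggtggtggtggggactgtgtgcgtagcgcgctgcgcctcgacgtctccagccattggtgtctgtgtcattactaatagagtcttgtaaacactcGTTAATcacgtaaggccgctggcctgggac

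In all, 8 motifs were searched on both strands of the 250 bases before 32851 RefSeq starts. The HNF1 motif GTTAAT matched at 81 and 74 bases before the downstream Hnf4a start and at 30 bases before the Cdx2 start, and 6.43% of all such windows hold it. The GATA motif AGATAA matched at 52 bases before the upstream Hnf4a start, with 9.99% of all windows holding it. The motifs of HNF4 (CAAAGTCC, in 1.2% of windows), CDX (TTTATNG, 9.81%), Krüppel-like factors (CCCACCC, 15.8%), T-box factors (GGTGTGA, 3.33%), MAF (TGCTGA, 16.1%) and the glucocorticoid receptor (AGAACA, 16.1%) had no match in the 3 windows. A missing match says only that these letters are not in these bases.

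Hnf4g (ENSMUSG00000017688), on the plus strand of chromosome 3 from 3573084 to 3724860 in the same assembly, stood at 14.2, 43.2 and 34.1 scaled CPM in WT Paneth cells and at 195, 206 and 215 in WT non-Paneth cells. In GRKO mice the values were 29.2, 30.1 and 33.6 in Paneth cells and 95.7, 80.8 and 113 in non-Paneth cells. The GRKO non-Paneth libraries lay between the Paneth libraries and the WT non-Paneth libraries and overlapped neither. Between the fractions the log2 fold change was -2.76 in WT (SE 0.304, adjusted p = 1.3e-05) and -1.64 in GRKO mice (SE 0.293, adjusted p = 0.000944). In non-Paneth cells it was 2.12-fold lower in GRKO (log2 -1.09, SE 0.281, adjusted p = 0.0105), and in Paneth cells the difference was 0.03 (adjusted p = 0.958). The interaction was 1.12 (SE 0.408, adjusted p = 0.0784). With the replicate number within each genotype as a block it passed, at 1.24 (adjusted p = 0.028). Without the second WT Paneth library, the one rich in enterocyte transcripts, it was 1.46 with an adjusted p of 0.0131, and without the first it was 0.77 with an adjusted p of 0.0181. The interaction of Hnf4g passed in 5 of 19 alternatives and did not pass in 14, with a highest adjusted p of 0.148.

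The ratio of Hnf4a to Hnf4g within a library, taken from counts per kb of exonic length, does not depend on how libraries are scaled. It was 2.99, 3.18 and 3.19 in WT non-Paneth cells and 8.9, 9.05 and 6.07 in GRKO non-Paneth cells. In Paneth cells it was 26.9, 8.11 and 11.4 in WT and 13.9, 18.8 and 13.7 in GRKO mice. Hnf4a was the more abundant member of the pair in all 12 libraries, least so in WT non-Paneth cells. The libraries of GRKO and WT did not overlap in non-Paneth cells, where the ratio was 2.53-fold higher in GRKO (exact permutation test, two-sided, p = 0.1, the smallest that 3 against 3 libraries allow). In Paneth cells the genotypes overlapped (1.13-fold, exact permutation p = 0.8).

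**Figure D3:**
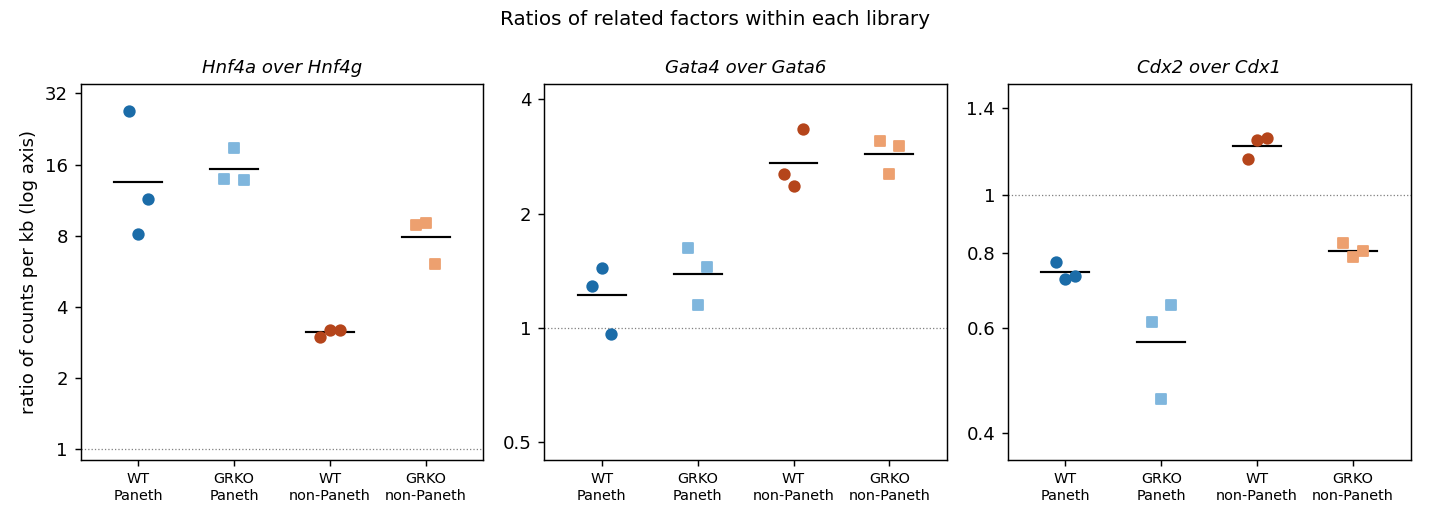
Ratios of counts per kb of exonic length within each library for the HNF4, GATA and CDX pairs, on log axes, with a point per library and a bar at the geometric mean of a group. Hnf4a over Hnf4g has a geometric mean of 3.12 in WT and 7.88 in GRKO non-Paneth cells, and Cdx2 over Cdx1 exceeds 1 only in the 3 WT non-Paneth libraries.

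Cdx1 (ENSMUSG00000024619, chromosome 18, 61151934 to 61169314, minus strand) was the factor that was higher in GRKO non-Paneth cells. It stood at 135, 133 and 128 scaled CPM in WT and at 200, 213 and 198 in GRKO non-Paneth cells. In Paneth cells it stood at 173, 157 and 163 in WT and at 189, 260 and 165 in GRKO mice. WT non-Paneth cells were thus the group with the lowest values, below every library of the other 3 groups. It was 1.54-fold higher in GRKO non-Paneth cells (log2 0.62, SE 0.142, adjusted p = 0.00315), and in Paneth cells the difference was 0.31 (adjusted p = 0.173). The WT Paneth libraries lay above the WT non-Paneth libraries without overlap, with a log2 fold change of 0.31 that missed the threshold (SE 0.142, adjusted p = 0.0767). It passed in 3 of 14 alternatives, at 0.38 with Lyz1 and Defa genes kept out of the scaling (adjusted p = 0.0324), at 0.41 with a stricter filter (adjusted p = 0.0212) and at 0.42 without the first WT non-Paneth library (adjusted p = 0.0466). With scaling by library totals in place of TMM this sign turned, to -0.38. The interaction of -0.31 passed in 1 of 19 alternatives, without the second GRKO Paneth library (-0.52, adjusted p = 0.0416).

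Cdx2 (ENSMUSG00000029646, chromosome 5, 147237615 to 147244091, minus strand) varied less. It stood at 154, 130 and 137 scaled CPM in WT Paneth and 132, 135 and 123 in GRKO Paneth cells. In non-Paneth cells it stood at 179, 190 and 183 in WT and at 191, 192 and 183 in GRKO mice. The fractions did not overlap in either genotype, while the genotypes overlapped in both fractions. Paneth cells were lower by 0.39 on the log2 scale in WT (SE 0.104, adjusted p = 0.00541) and by 0.53 in GRKO mice (SE 0.104, adjusted p = 0.000862). The WT call was lost without the second WT non-Paneth library (adjusted p = 0.0979) or the third (adjusted p = 0.0542). In non-Paneth cells the genotypes differed by 0.04 (SE 0.103, adjusted p = 0.81).

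Within a library, Cdx2 over Cdx1 was 1.15, 1.24 and 1.25 in WT non-Paneth cells, and 0.831, 0.787 and 0.806 in GRKO non-Paneth cells. It was 0.774, 0.723 and 0.732 in WT Paneth and 0.612, 0.455 and 0.654 in GRKO Paneth cells. Cdx2 exceeded Cdx1 per kb in WT non-Paneth cells alone. The 4 comparisons of groups each showed no overlap, with log2 differences of -0.71 between the WT fractions, -0.51 between the GRKO fractions, -0.59 for genotype in non-Paneth cells and -0.39 for genotype in Paneth cells (exact permutation tests, two-sided, p = 0.1 in each, the smallest possible).

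Gata4 (ENSMUSG00000021944, chromosome 14, 63436362 to 63509141, minus strand) stood at 47.2, 46.3 and 38.1 scaled CPM in WT Paneth and at 112, 114 and 136 in WT non-Paneth cells. The GRKO values were 56.8, 52.4 and 68.7 in Paneth and 158, 113 and 140 in non-Paneth cells. Both genotypes thus had a gap between the fractions, 2.76-fold in WT (log2 -1.46, SE 0.152, adjusted p = 1.24e-06) and 2.31-fold in GRKO mice (log2 -1.21, SE 0.15, adjusted p = 1.56e-05). The 3 GRKO Paneth libraries lay above the 3 WT Paneth libraries, with a log2 difference of 0.44 that missed the threshold (SE 0.152, adjusted p = 0.0939). In non-Paneth cells the genotypes overlapped (0.18, adjusted p = 0.356).

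Gata6 (ENSMUSG00000005836, chromosome 18, 11051565 to 11086995, plus strand) had the narrowest range of the 9, with group means from 58.4 scaled CPM in WT Paneth to 76.7 in GRKO non-Paneth cells. Its libraries stood at 59.1, 51.9 and 64 in WT Paneth and at 71.7, 78.2 and 66 in WT non-Paneth cells. The groups touched closely without overlap, and the log2 fold change of -0.30 missed the threshold (SE 0.133, adjusted p = 0.0714). In GRKO mice it stood at 56.7, 73.8 and 76.7 in Paneth and at 82.5, 72.2 and 75.5 in non-Paneth cells, which overlapped (log2 -0.15, adjusted p = 0.396). No comparison of Gata6 passed with TMM scaling, and with library totals it was called lower in Paneth cells of both genotypes. An antisense RNA, Gata6os, covers 12.5% of the exonic bases of Gata6 and lay at 5.11 to 11.2 scaled CPM. The strand counted is not stated, and reads of the pair cannot be told apart where they overlap.

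Gata4 over Gata6 per kb was 1.29, 1.44 and 0.964 in WT Paneth and 1.62, 1.15 and 1.45 in GRKO Paneth cells. It was 2.54, 2.37 and 3.34 for WT non-Paneth cells, with 3.1, 2.54 and 3.01 after GRKO. The fractions did not overlap in either genotype, and the genotypes overlapped in both fractions. The ratio was 2.24-fold lower in WT Paneth than in WT non-Paneth cells (exact permutation p = 0.1, the smallest possible) and 1.06-fold higher in GRKO than in WT non-Paneth cells (exact permutation p = 0.8). Another intestinal member, Gata5, was expressed too, and per kb it ranked above both in WT Paneth, GRKO Paneth and WT non-Paneth cells, at 109 TPM against 90.3 for Gata4 in the last. In GRKO non-Paneth cells Gata4 stood at 145 TPM and Gata5 at 91.2. Gata5 fell by 0.77 on the log2 scale with GRKO in non-Paneth cells (SE 0.139, adjusted p = 0.000691). The other 3 GATA genes, Gata1, Gata2 and Gata3, had no counts in any library.

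Klf5 (ENSMUSG00000005148, chromosome 14, 99536086 to 99552473, plus strand) stood at 153, 151 and 170 scaled CPM in WT Paneth and 264, 300 and 286 in WT non-Paneth cells. In GRKO mice it stood at 161, 222 and 164 in Paneth and 330, 334 and 302 in non-Paneth cells. The fractions did not overlap in either genotype, and Paneth cells were lower by 0.85 in WT (SE 0.133, adjusted p = 7.84e-05) and by 0.82 in GRKO mice (SE 0.133, adjusted p = 0.000179). Genotype differences were 0.21 in Paneth (adjusted p = 0.32) and 0.18 in non-Paneth cells (adjusted p = 0.295). Per kb, Klf5 was the most abundant of 17 Klf genes in 3 of the 4 groups, and in WT non-Paneth cells it stood at 229 TPM beside 233 for Klf4. Klf4, known from goblet cells and differentiated epithelium, fell by 1.49 with GRKO in non-Paneth cells (SE 0.148, adjusted p = 9.03e-06), where Klf5 did not pass the test.

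Maf (ENSMUSG00000055435, chromosome 8, 116409632 to 116434579, minus strand) was the factor with the widest range. Its raw counts were 16, 62 and 8 in WT Paneth and 15, 61 and 34 in GRKO Paneth cells, which is 1.52, 7.67 and 0.946 and then 1.81, 5.38 and 3.22 scaled CPM. In WT non-Paneth cells it stood at 138, 175 and 137 scaled CPM and in GRKO non-Paneth cells at 33.4, 30 and 40.5. The non-Paneth groups overlapped neither each other nor any Paneth library. Paneth cells were 46-fold lower in WT (log2 -5.52, SE 0.57, adjusted p = 3.01e-05) and 9.69-fold lower in GRKO mice (log2 -3.28, SE 0.537, adjusted p = 0.00108). Maf was 4.32-fold lower in GRKO non-Paneth cells (log2 -2.11, SE 0.441, adjusted p = 0.00505). In Paneth cells the difference was 0.14 with a wide error (SE 0.665, adjusted p = 0.919).

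The Maf interaction was 2.25 (SE 0.791, adjusted p = 0.0797). Without the second WT Paneth library it was 3.61 with an adjusted p of 0.000329, the WT fractions then differed by -6.89 on the log2 scale, and the count of factors called for the interaction was 3. The interaction of Maf passed in 2 of 19 alternatives and did not pass in 17, with a highest adjusted p of 0.233. A small Maf gene, Mafk, fell by 1.04 with GRKO in non-Paneth cells (SE 0.144, adjusted p = 9.32e-05). The antisense gene Gm15655, which overlaps 4.74% of the exonic bases of Maf, had no counts.

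Tbx3 (ENSMUSG00000018604, chromosome 5, 119806298 to 119822797, plus strand) was the factor whose genotype effect differed between the fractions. It stood at 24.3, 25.5 and 25.5 scaled CPM in WT Paneth and at 19.2, 28.5 and 25.7 in GRKO Paneth cells. In non-Paneth cells it stood at 167, 162 and 160 in WT and at 44.5, 39.3 and 45.7 in GRKO mice. The Paneth groups overlapped, and the non-Paneth groups lay apart from them and from each other. Paneth cells were 6.49-fold lower in WT (log2 -2.70, SE 0.138, adjusted p = 1.83e-09) and 1.76-fold lower in GRKO mice (log2 -0.81, SE 0.133, adjusted p = 0.000189). Tbx3 was 3.77-fold lower in GRKO non-Paneth cells (log2 -1.92, SE 0.131, adjusted p = 7.59e-07) and differed by -0.03 in Paneth cells (SE 0.137, adjusted p = 0.908). The interaction was 1.88 (SE 0.188, adjusted p = 5.13e-05) and passed in all 19 alternatives. Of the 15 T-box genes looked up, Tbx3 was the most abundant per kb in every group. None of the others looked up passed the filter on low counts. Tbx3 has antisense genes too. Of these, Tbx3os1, which shares 17.8% of the exonic bases of Tbx3, and Tbx3os2 reached at most 0.581 and 2.85 scaled CPM.

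The factors that were lower in GRKO non-Paneth cells are set here beside the enterocyte markers. The summed markers were 4.55-fold lower in GRKO than in WT non-Paneth cells, beside 4.32-fold for Maf, 3.77-fold for Tbx3 and 2.12-fold for Hnf4g. Of the 8 markers, 4 were called, all lower, beside 37.3% called among all genes. The other 4, Apoa1, Apoa4, Sis and Alpi, did not pass, so the fall of the sum is not a call on each marker. Per 1000 counts of the 8 markers, a measure chosen after the values had been seen and given with no test, Maf had 5.12, 6.62 and 5.17 counts in WT and 5.62, 5.99 and 6.17 in GRKO non-Paneth cells. These ranges overlapped. Tbx3 had 6.04 to 6.2 counts in WT and 6.95 to 7.83 in GRKO non-Paneth cells, and Hnf4g had 7.22 to 8.1 and 16.1 to 17.2. Hnf4a had 24.8 to 29.7 and 120 to 167, and Cdx1 had 4.82 to 5.06 and 30.2 to 42.5. In Paneth cells, Maf had 2.03 to 3.79 counts in WT and 3.95 to 7.05 in GRKO, and Tbx3 had 12.1 to 60.6 and 37.3 to 41.8. Markers of other cells moved with genotype in non-Paneth cells as well, with 5 of 5 proliferation, 4 of 4 tuft and 4 of 5 stem cell markers higher and 2 of 6 goblet markers lower in GRKO. Among all genes, 37.3% were called there, to which the goblet count is close. The proliferation and tuft markers had sums of 1285 to 1352 against 739 to 850 and of 56.6 to 245 against 2.48 to 7.32 scaled CPM. The stem cell markers summed to 5017 to 6386 against 3784 to 5077, and the goblet markers to 5716 to 7722 against 6723 to 14566. In Paneth cells, where 3.22% of all genes were called for genotype, 0 of 5 stem cell and 0 of 4 tuft markers were called. Their sums still differed, with 4394 to 6387 in GRKO against 8189 to 8551 in WT for stem cell markers. For tuft markers they were 358 to 1049 against 142 to 385. The part of such shifts in the results for the 9 factors was not tested.

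**Figure D4:**
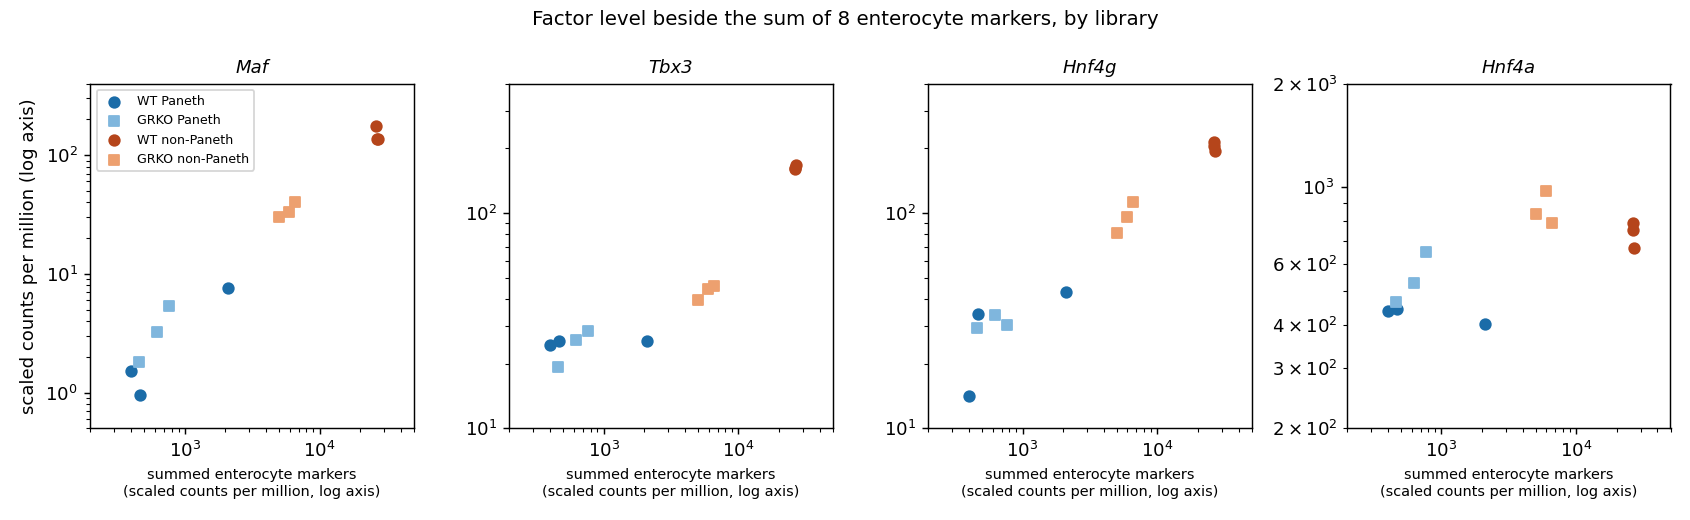
Scaled CPM of Maf, Tbx3, Hnf4g and Hnf4a against the sum of 8 enterocyte markers in the same library, both on log axes, with a point for each of the 12 libraries. The GRKO non-Paneth libraries (5013 to 6575 on the horizontal axis) lie between the Paneth and WT non-Paneth libraries for Maf, Tbx3 and Hnf4g, and Hnf4a is between 789 and 977 there against 667 to 786 in WT non-Paneth cells.

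Compared per length within a group, Hnf4a had the highest mean in all 4 groups, at 65.9 ± 11.9 TPM in WT Paneth and 619 ± 70.9 TPM in WT non-Paneth cells (SD, n = 3). In WT Paneth cells it was followed by Cdx1 and Cdx2, which did not separate from their upper neighbours, then Klf5, Gata4, Hnf4g, Gata6, Tbx3 and Maf. Of these, Gata4, Hnf4g and Gata6 overlapped. In WT non-Paneth cells the order was Hnf4a, Cdx2, Cdx1, Klf5, Hnf4g, Gata4, Tbx3, Maf and Gata6, where Klf5 overlapped Hnf4g and Gata4 overlapped Tbx3. Maf moved from the last place in Paneth cells, at 0.255 TPM in WT, to a place above Gata6 in WT non-Paneth cells, at 68.4 against 33 TPM. In GRKO non-Paneth cells Maf (22.6 TPM) was the last again, and Cdx1 (621 TPM) stood above Cdx2 (502 TPM). TPM values are compared between genes of a group and not between fractions.

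The genes most like each factor over the 12 libraries were sought among 9652 genes with a mean of at least 10 CPM in a group. Levels for this minimum were scaled by library totals. The measure was Pearson's r of log2 scaled CPM, a description over libraries that share 4 groups. For Maf they were Tm6sf2, Ces2e and Npc1l1 (r = 0.996, 0.995 and 0.995), of which Npc1l1 takes up cholesterol in enterocytes. For Hnf4g they were Aldh9a1, Car2 and Ugt2b34 (r = 0.993, 0.991 and 0.988), and for Tbx3 they were Tesk2, Mov10 and Gm7694 (r = 0.992, 0.989 and 0.988). Hnf4a was closest to Ube2l3 (r = 0.986), Klf5 to Kctd10 (r = 0.99), Gata4 to Usp2 (r = 0.987) and Cdx2 to Isx (r = 0.974), an intestinal homeobox gene. Cdx1 (Cnpy3, r = 0.955) and Gata6 (Brd1, r = 0.923) had the least close neighbours. Among the 9 factors themselves the closest pairs were Hnf4a with Klf5 (r = 0.97) and Hnf4g with Maf (r = 0.96), and Cdx1 ran against Tbx3 (r = -0.64).

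Other transcription factors of the epithelium were taken from a list of 29. Of these, 5 did not pass between the WT fractions, where 50.7% of all genes were called. In WT Paneth cells 20 were lower and 4 higher than in WT non-Paneth cells. Among those far apart were Creb3l3, which drives lipid genes in enterocytes (log2 -5.80), the xenobiotic receptor gene Nr1i3 (-4.74) and Prdm1, known as Blimp1 (-2.74). The 4 that were higher, named after their values were seen, were the forkhead genes Foxa3 (2.46), Foxa1 (1.42) and Foxa2 (3.99-fold) and the ETS gene Ehf (0.43, adjusted p = 0.0431). The sign of Ehf turned with scaling by library totals. With GRKO in non-Paneth cells 12 of the 29 were lower, 4 higher and 13 did not pass, beside 37.3% called among all genes. Creb3l3 fell there by 2.39, Prdm1 by 2.04 and Nr1i3 by 1.93, and the 4 higher were again Foxa2 (0.88), Ehf (0.80), Foxa1 (0.68) and Foxa3 (0.65).

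The genes that HNF4, CDX and MAF proteins are known to serve in enterocytes were listed too. This list of 18 holds all 8 enterocyte markers, so it does not stand apart from their sum. All 18 listed enterocyte targets were lower in WT Paneth cells, beside 50.7% called among all genes. Their median log2 fold change was -5.15, and among them were lactase (Lct, -6.27), alkaline phosphatase (Alpi, -5.94), the glucose transporter gene Slc2a2 (-5.88) and Apoa4 (-5.72). In GRKO non-Paneth cells 11 of 18 were lower and 7 did not pass, beside 37.3% called among all genes. The median there was -1.99, with Apoc3 (-2.53), Fabp1 (-2.46), Fabp2 (-2.31) and Slc2a2 (-2.12) at the head. That median lies beside log2 fold changes of -2.11 for Maf, -1.09 for Hnf4g and 0.24 for Hnf4a. The count ran from 9 with library totals to 16 by DESeq2, 17 without a filter and 18 with only the groups compared, lower in each case.

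Genes of the proximal and the distal small intestine were listed beside the regional factors. Both lists share genes with the lists above. In WT Paneth cells 7 of 8 proximal genes were lower and 1 higher, the duodenal ferric reductase gene Cybrd1 (log2 5.38). Of 8 distal genes 6 were lower, with the vitamin B12 receptor gene Cubn (-5.95) and the ileal bile acid transporter gene Slc10a2 (-4.58) farthest apart. Among all genes, 50.7% were called between the WT fractions. With GRKO in non-Paneth cells 3 of 8 proximal genes (Fabp1, Creb3l3 and Nr1i3) and 5 of 8 distal genes were lower, beside the 37.3% called among all genes, to which the proximal count is close. The distal ones were Fgf15 (-4.72), an ileal hormone of bile acid feedback, Slc51b (-2.26), Cubn (-2.18), Nr1h4 (-0.65) and Osr2 (-0.52). Fgf15 rests on a mean of 14.7 scaled CPM in WT (2.35 to 32.1) and 0.564 in GRKO non-Paneth cells (0.0419 to 1.3), with an SE of 1.22. The distal count was 2 with scaling by library totals and 8 without a filter, and the proximal count was then 3 and 5.

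The listed relatives of the 9 factors in the GATA, CDX, KLF, MAF and T-box families numbered 42, of which 17 passed the filter on low counts. Of the 17, 7 were lower and 3 higher in WT Paneth than in WT non-Paneth cells, and 1 of the 3 higher calls turned with scaling by library totals. The 10 called stand beside 50.7% called among all genes, to which this count is close. Between the WT fractions, Klf15 (log2 3.80) and Klf12 (2.82) were the farthest above. With GRKO in non-Paneth cells 8 of 17 were called, all lower, against 37.3% of all genes. Library totals gave 7 lower and 3 higher, and a fit on only the groups compared gave 9 lower and 2 higher. They included Klf15 (-1.62), Maff (-1.08) and Klf6 (-1.06) beside Klf4, Mafk and Gata5.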

How the data were processed

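Raw counts per gene were deposited for 12 bulk RNA-seq libraries. Per the labels and the study's methods, the authors trimmed reads of stranded libraries with Trimmomatic 0.39, aligned them with STAR 2.7.10a to mm39 and counted reads per gene during alignment. The counted strand is not stated. Genotypes follow the sample titles, with which another label on genotype disagrees for some libraries. No labels tie libraries to animals, so p-values measure the spread between these libraries.

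Of 55414 genes, 54749 were named through GENCODE vM39. Counts were fitted with edgeR 4.0.16 in R 4.3.3 (filterByExpr, TMM, glmQLFit with robust estimates, glmQLFTest), with 1 mean per group and Benjamini-Hochberg adjustment over 13057 genes. The procedure was run on simulated data in which few genes changed and all groups otherwise shared their means. This setting does not cover differences as wide as those between the fractions. Levels, planned as CPM by library totals, are given after TMM scaling to match the fits, and TPM uses exonic length. Ratios were compared with exact permutation tests over libraries. The text names all 9 factors, from each gene list up to 4 called genes with the largest change, family relatives, overlapping genes and the 3 most correlated genes. An item that this rule names is not reported here. The factors, gene lists and markers were chosen with earlier results of these data known.

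After group means were removed, same-numbered WT Paneth and WT non-Paneth libraries correlated at 0.349, 0.229 and 0.238, above the limit of 0.1. The numbers were taken to pair these libraries, which 3 libraries a group cannot settle. The same correlations in GRKO mice were 0.0129, 0.262 and 0.465, and WT and GRKO numbers were not paired. The main fit used no pairing. No library of a group repeated another. Alternatives were RLE factors, library totals, scaling without Lyz1 and Defa genes, no filter, at least 10 counts in every library of a group, DESeq2 1.42.0, only the groups compared, a replicate block and each library left out. The block was the replicate number within a genotype for the fractions and the interaction. For the genotype comparisons it was the number across genotypes. Library depth was 11126297 to 15910292 counts.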

Additional observations from a re-analysis of the deposited data

Results flagged for a closer look

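The effect of GRKO differed between the fractions for Tbx3, with an interaction of 1.88 on the log2 scale (edgeR, adjusted p = 5.13e-05). The level fell by 1.92 in non-Paneth cells, lower in each of 3 GRKO libraries, and differed by -0.03 in Paneth cells.

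Called interactions ran both ways among the listed genes. They were negative for 5 of 5 stem cell, 4 of 5 proliferation and 2 of 4 tuft markers. Positive calls covered 6 of 18 enterocyte targets, 6 of 17 relatives and 6 of 29 other factors. Among all genes 18.7% were called, to which the count of other factors is close. The enterocyte targets were Anpep at 2.24, Vil1 at 1.93, Mttp at 1.67, Slc5a1 at 1.19, Cdh17 at 0.80 and Gucy2c at 0.79. Among relatives and other factors the largest were Klf15 at 2.06, Klf4 at 1.61, Mafk at 1.5, Ppargc1a at 1.07, Klf6 at 0.93, Gata5 at 0.91, Rxra at 0.88 and Tcf7l2 at 0.83. Esrra at 0.63 and Klf3 at 0.57 came after them. Scaling by library totals kept 3 of 6 such calls among relatives and 1 of 6 among other factors.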

How the results depend on the processing

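All 98 refits of the 7 GRKO fraction calls, all 56 of the 4 non-Paneth genotype calls and 96 of 98 of the 7 WT fraction calls kept their direction and their call, the exceptions being Cdx2. With library totals, which shifted the median of all genes by -0.68 between WT fractions, -1.05 between GRKO fractions, 0.31 for genotype in non-Paneth cells and -0.28 in the interaction, 10784 genes were called between GRKO fractions (816 higher, 9968 lower, against 2344 and 2773), and the WT fractions split into 1097 higher and 7892 lower against 3133 and 3491. Genotype in non-Paneth cells then split into 4348 higher and 1478 lower against 2283 and 2586, and the interaction into 752 and 1836 against 1496 and 950, and 7 factors were called in non-Paneth cells, with Gata4 (0.47), Hnf4a (0.53) and Klf5 (0.47) added. Signs turned for Cdx1 in WT (-0.38) and GRKO fractions (-0.96, adjusted p = 0.00014) and for the interactions of Gata4 (-0.017), Gata6 (-0.12), Hnf4a (-0.15) and Klf5 (-0.24).

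Genotype in Paneth cells called 420 genes and 2 with totals, 1780 without a filter and 1381 by DESeq2. It called 0 with only the groups compared (edgeR) and 0 to 1618 with a library left out. A block by replicate number gave 977, although WT and GRKO numbers were not paired. Without Lyz1 and Defa genes in the scaling, the genotype calls in Paneth cells split into 173 higher and 318 lower against 222 and 198. Without GRKO Paneth replicate 1, Hnf4a was called there (0.46, adjusted p = 0.048), the 1 factor called in any refit. The interaction was called for 3 factors without a filter, 2 by DESeq2, 2 with the replicate block (Hnf4g 1.24, adjusted p = 0.028) and 1 to 3 with a library left out, with 1563 to 2607 genes. The replicate block changed no other call on the factors.

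Uncalled values near 0 also changed sign: Cdx1 between GRKO fractions without a filter (-0.064), with the replicate block (-0.023) and with a library left out (-0.209 to 0.138); Hnf4g in Paneth cells without Defa genes in the scaling (-0.01), with the strict filter (-0.006), with only the groups compared (-0.009) and with a library left out (-0.32 to 0.37). Left-out libraries also gave -0.34 to 1.5 for Maf and -0.15 to 0.11 for Tbx3 in Paneth cells. Cdx2 in non-Paneth cells was -0.02 with RLE, DESeq2 and the strict filter, -0.029 without Defa genes and -0.038 to 0.013 with a library left out, and Gata6 there -0.028 to 0.11. The interactions of Hnf4a and Klf5 ran from -0.026 to 0.216 and from -0.14 to 0.107. The cause was not tested. With 3 libraries a group, small differences can be missed, although Cdx2 was called at -0.39 between the WT fractions.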
